A study of Mus musculus with 18 samples.

Results

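The response to lipopolysaccharide (LPS) was measured in adipocytes carrying a control hairpin, by comparing 3 libraries labelled shLuc with LPS and 3 labelled shLuc without it. These 6 libraries, chosen by their sample labels, are part of 18 RNA sequencing libraries of differentiated 3T3-L1 cells, a line of mouse fibroblasts able to become fat cells in culture. Both groups consist of passage 15 cells and carry the same lentiviral hairpin vector, labelled as the control for Irf3 knockdown, which was introduced into mature adipocytes for 6 days. The labels describe a further 6 days of LPS, with medium changes, without saying that it also holds for the control cells or how long untreated cells were kept. An effect of LPS and one of a longer culture therefore cannot be told apart. No label says whether replicates are separate cultures, and p-values thus measure only the spread among the libraries, which may be technical. All groups come from 1 cell line under a virus-delivered vector.

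LPS is a cell wall component of Gram-negative bacteria. It is sensed by Toll-like receptor 4, whose adaptors lead to NF-kB on one branch and to the transcription factor IRF3 and type I interferon on the other. Adipocytes carry this receptor, and inflamed fat tissue is known for secreted chemokines and acute phase proteins and for lower insulin-stimulated glucose uptake. The counted units are gene models with UCSC known-gene identifiers, and of the 27473 of them 0 could be found in the name tables at hand. Gene models are therefore given by identifier and by position on mouse build mm9, the lists of inflammatory, interferon and adipocyte genes could not be read, and the adipocyte label could not be checked against marker genes. In a bulk culture, fewer cells of a type and less RNA per cell cannot be told apart.

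The control libraries differed more among themselves than the treated ones. Totals ran from 25172651 to 34368259 counts. The mitochondrial genome, chromosome M, took up 14.2% of the counts of shLuc replicate 1, 2.88% of replicate 2 and 5.19% of replicate 3, against 4.21% to 4.52% with LPS. A gene model on chromosome 9 (123276058 to 123371782, 21 exons) stood at 46078 CPM (the usual per-library scaling of counts, here outside chromosome M) in shLuc replicate 1 and between 369.1 and 3759 CPM in the other 5 libraries. Fitted on each group alone over the same 14643 gene models, the biological coefficient of variation was 0.157 in shLuc and 0.0543 in shLuc with LPS. On the first principal component (47.2% of the variance) the shLuc libraries lay between -28.0 and -19.8 and the LPS libraries between 20.8 and 24.6. The second (25.7%) separated shLuc replicates 1 and 2 from each other, at 25.8 and -31.0. Library sizes were therefore taken outside chromosome M, and for the named gene models and for runs of neighbouring ones it is also given whether the calls held without each library.

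Levels were higher with LPS for 369 of 14643 gene models (2.52%) and lower for 304 (2.08%), or 4.6% called in all, at a Benjamini-Hochberg adjusted p under 0.05 in edgeR's quasi-likelihood test. Among the gene models that rose the median log2 fold change was 0.78 and the highest 11.09, and among those that fell the median was -0.66 and the lowest -3.18, beside a median of -0.0045 over all gene models tested. Changes of at least 2-fold numbered 143 higher (0.977%) and 69 lower (0.471%), or 1.45% in all, of which 55 and 2 were of gene models under 1 CPM without LPS. Gene models near 0 without LPS can rise by a large fold but not fall, so the extremes of the 2 directions are not compared. The CPM values of the 2 groups did not overlap for any of the 673 called gene models, whereas they did not overlap for 22.2% of all those tested.

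**Figure D1:**
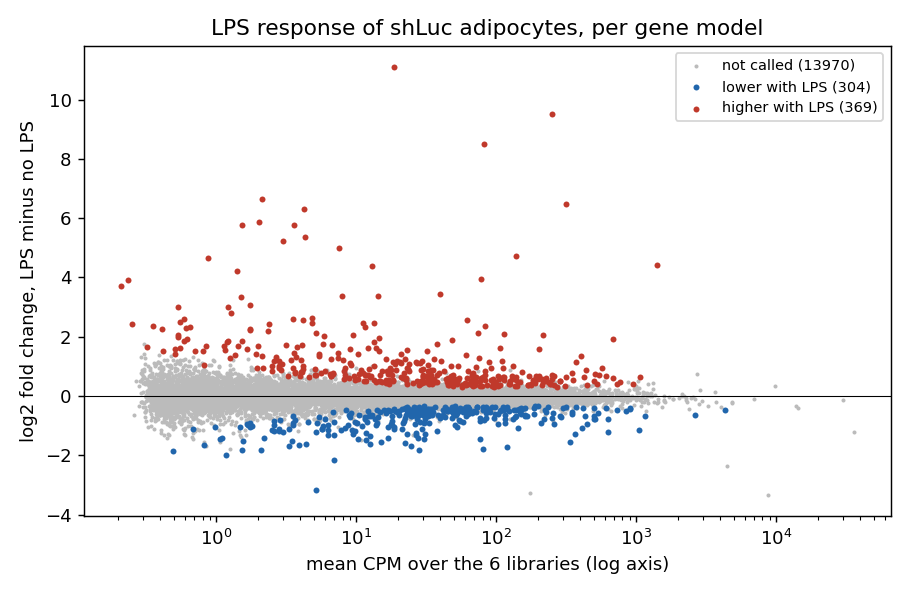
Each point is a gene model; the x axis is its mean CPM over the 6 libraries on a log axis and the y axis its log2 fold change with LPS. The 369 red points (higher) lie up to 11.09 and the 304 blue points (lower) down to -3.18.

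The number of calls moved with single libraries. Leaving out shLuc replicate 2 gave 612 higher and 547 lower, and leaving out shLuc replicate 1 gave 549 and 394. The counts dropped to 215 and 176 without shLuc replicate 3, to 204 and 141 without LPS replicate 1, to 213 and 153 without LPS replicate 2 and to 185 and 106 without LPS replicate 3. Of the gene models called in the full fit, 169 that rose (45.8%) and 99 that fell (32.6%) were called in all 6 of these fits as well. When limma weighted libraries by quality, shLuc replicates 1 and 2 had weights of 0.424 and 0.221 against 1.28 to 2.12 for the others, and 804 gene models were higher and 733 lower. The part of the spread between shLuc libraries in these counts was not tested beyond these fits.

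**Figure D2:**
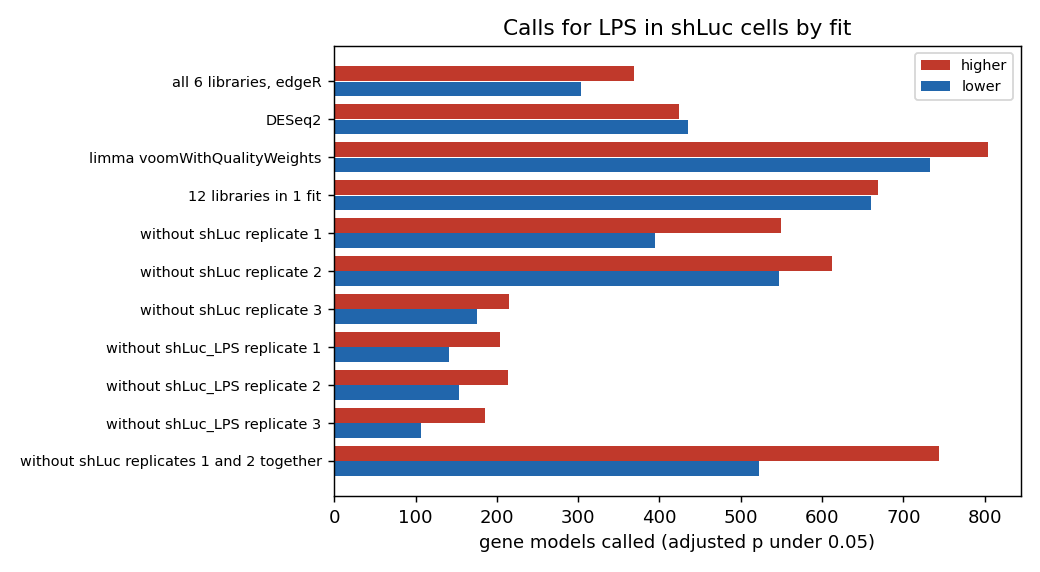
Bars give the number of gene models called higher (red) and lower (blue) with LPS in 11 fits, with the x axis starting at 0. The lowest counts, 185 and 106, come without LPS replicate 3 and the highest, 804 and 733, with limma's quality weights.

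The named gene models are the 2 per direction with the largest change that was kept in every fit. The gene model uc007kkc.1 on chromosome 11 (78734361 to 78773626, 27 exons) was nearly silent without LPS. It had 0, 0 and 0.0409 CPM in the shLuc libraries, which is 1 count in all, and 34.4, 36.0 and 41.9 CPM with LPS, which is 3161 counts. The ratio of the scaled counts was 2970, with a 95% counting interval from 533 to 117337 (exact Clopper-Pearson). The edgeR adjusted p was 1.24e-08, and 1.69e-05 in the weakest of the fits without 1 library. Its level per length with LPS was 9.38 RPKM (CPM per kilobase of exon), which ranked 5941 among the gene models tested. With 1 count without LPS, it passed the low-count filter through the LPS libraries alone. Its place at the bottom without LPS follows from that filter and from its choice, so nothing is read from the move in rank.

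On chromosome 7 (53967368 to 53971046), the 5-exon gene model uc009gyx.1 stood at 0.645, 0.775 and 0.613 CPM without LPS. With LPS it stood at 539.8, 451.8 and 503.5 CPM. All 3 treated libraries lay above the controls, as the choice of named gene models required. The log2 fold change was 9.51 ± 0.15 (SE), with an edgeR adjusted p of 2.10e-10. Per length its level went from 1.13 RPKM, rank 11019, to 829.2 RPKM, rank 26 of 14643. Leaving out any 1 library gave log2 fold changes from 9.45 to 9.61.

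Among the gene models that fell, uc007qjr.1 on chromosome 13 (49703440 to 49719869, 7 exons) had 121.0, 126.0 and 129.3 CPM without LPS and 43.9, 38.5 and 25.8 CPM with it. Its log2 fold change was -1.80 ± 0.17 (SE, edgeR adjusted p = 5.00e-04), or from -1.96 to -1.61 with 1 library left out. The controls lay close together and the treated libraries spread more, with the lowest in LPS replicate 3. Per length, uc007qjr.1 went from 49.2 to 14.1 RPKM.

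The gene model uc009elo.1 on chromosome 6 (135312949 to 135333191, 6 exons) had 170.6, 221.1 and 159.7 CPM without LPS and 54.6, 53.7 and 57.7 CPM with it. Here shLuc replicate 2 was the highest library and the treated libraries were nearly equal. The log2 fold change was -1.73 ± 0.12 (SE, edgeR adjusted p = 2.18e-05), and without 1 library it lay from -1.82 to -1.58. Its level per length went from 64.9 RPKM, rank 960, to 19.5 RPKM, rank 3369.

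**Figure D3:**
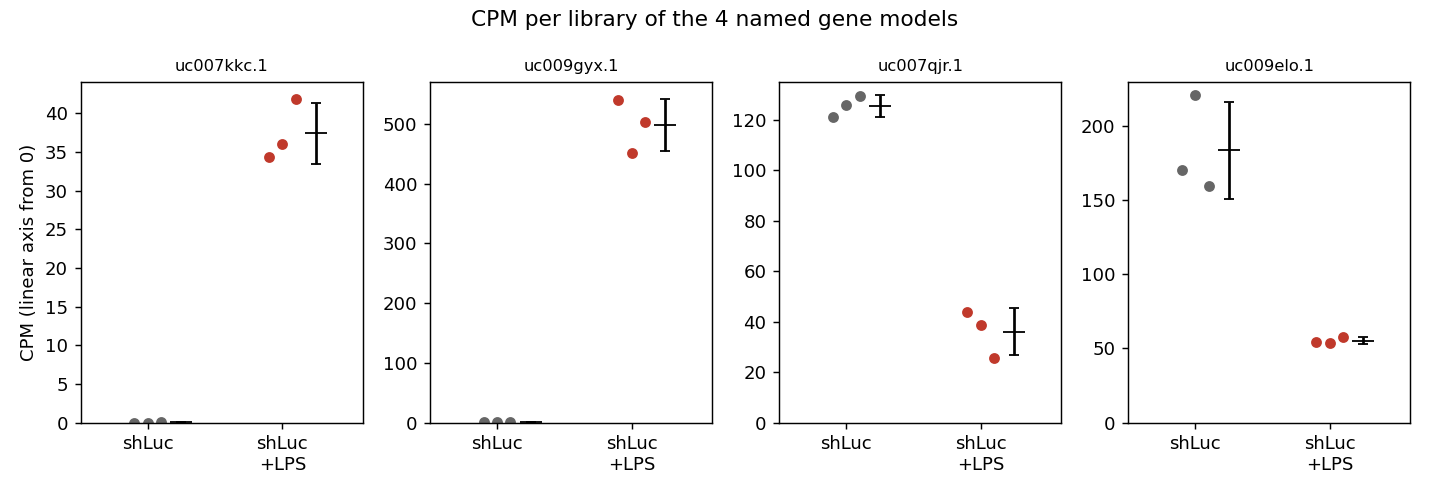
Points give the CPM of each of the 3 libraries per group for the 4 named gene models, with the mean and SD beside them, on linear axes from 0. The groups do not overlap in any panel, which was a condition of the choice. The lowest LPS library of uc009gyx.1 stands at 451.8 CPM against at most 0.775 CPM without LPS. The highest LPS library of uc009elo.1 stands at 57.7 CPM against at least 159.7 CPM.

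Calls in both directions were found at all levels of expression. Of gene models above 100 CPM without LPS, 59 of 2382 rose (2.48%) and 83 fell (3.48%). Between 10 and 100 CPM 162 of 6621 rose (2.45%) and 171 fell (2.58%), and between 1 and 10 CPM 93 of 3711 rose (2.51%) and 48 fell (1.29%). Below 1 CPM 55 of 1929 rose and 2 fell. That last class includes gene models that passed the low-count filter through the LPS libraries alone, and a fall from so few counts is hard to detect, so its shares are not compared with the others. Within the 3 higher classes the median changes of called gene models were of similar size in both directions. The threshold for a call partly sets these medians, so nothing is read from their likeness. The median log2 fold change was 1.03 for those that rose and -1.10 for those that fell between 1 and 10 CPM, 0.63 and -0.63 between 10 and 100 CPM, and 0.53 and -0.59 above 100 CPM. Below 1 CPM the 55 that rose had a median of 2.30. Low counts need larger changes to pass the test, so nothing is read from the order of the classes.

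In 4 of the gene models that rose, the 3 shLuc libraries together held 3 counts or fewer. Besides uc007kkc.1 these had 355, 38 and 33 counts with LPS. All 4 passed the low-count filter through the LPS libraries alone. The gene models called higher held 21515 ± 708 CPM together without LPS and 38770 ± 418 CPM with it (SD, n = 3), and those called lower held 42498 ± 1544 and 27403 ± 773 CPM, sums that the calls themselves fix. Of the gain, 19 of the 369 gene models made up 50% and the 10 largest 37.8%. Of the loss, 17 of 304 gene models made up 50%. How unevenly CPM is spread over all gene models was not worked out beside these shares, so nothing is read from them.

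The largest single gain, picked after the values were seen, lay on chromosome 17 (57343396 to 57367559, 41 exons). This gene model had 141.8, 115.3 and 121.3 CPM without LPS and 2743, 2699 and 2692 CPM with it, a change of 4.43 ± 0.12 on the log2 scale (SE, edgeR adjusted p = 1.24e-08). It made up 2585 CPM of the 17255 CPM gained. The largest single loss, picked in the same way, was of a 50-exon gene model on chromosome 1 (45368383 to 45406551). It had 5393, 4921 and 4681 CPM without LPS and 3491, 3747 and 3577 CPM with it. Its log2 fold change of -0.47 ± 0.11 (SE) was called in the full fit (edgeR adjusted p = 0.0354), but the adjusted p reached 0.210 with 1 library left out, at log2 fold changes from -0.52 to -0.41.

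Calls were also counted by the structure and chromosome of the gene models, without a test. Of those over 3 kb in exon length 2.38% rose and 2.33% fell, of those between 1 and 3 kb 2.75% and 1.72%, and of those under 1 kb 2.43% and 1.98%. Among 710 gene models with 1 exon 8 rose (1.13%) and 12 fell (1.69%), against 2.59% and 2.1% of those with 2 or more exons. Over the autosomes and chromosome X the share that rose ran from 1.01% on chromosome 14 to 3.43% on chromosome 12, and the share that fell from 0.883% on chromosome 4 to 3.65% on chromosome X. On chromosome M 0 of the 7 gene models tested were called by edgeR, with log2 fold changes from -2.36 to -0.25, and shLuc replicate 1 was the highest library for each of them.

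Part of the gene models that rose lay next to each other. Runs of at least 3 called gene models of 1 direction, with starts at most 100 kb apart, were counted as neighbourhoods. There were 11 neighbourhoods of gene models that rose, with 42 of the 369 (11.4%), and 1 of gene models that fell, with 3 of the 304 (0.987%). Overlapping gene models were counted singly, so the runs on chromosomes 10 and 17 hold fewer than 3 separate places. How many such runs the overall shares of calls would give was not tested. No called gene model of the opposite direction lay within any of the 12. Most gene models tested in them were the called ones, and over all gene models only 2.52% rose and 2.08% fell. Nothing is read from that absence. Neighbours can share sequence, and reads shared between near-identical copies could be split or lost in the counting, so the values of single neighbours are less certain than their sum. With 1 library left out, the neighbourhoods of gene models that rose, old or new, numbered 17 and 23 without shLuc replicates 1 and 2. They numbered 4, 5, 6 and 4 without shLuc replicate 3 and LPS replicates 1, 2 and 3, respectively. Of the 11 given here, 10 and 11 were still found without shLuc replicates 1 and 2. Without shLuc replicate 3 and LPS replicates 1, 2 and 3, 4, 4, 6 and 4 of them were. The 1 of gene models that fell was lost only without shLuc replicate 3.

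The neighbourhood with the highest single log2 fold change lay on chromosome 7 (53967368 to 54051369) and starts with uc009gyx.1. All 5 gene models tested in it rose, and all 5 were called in every fit without 1 library. From left to right their log2 fold changes were 9.51, 3.01, 6.32, 5.23 and 0.56. Gene model 3 from the left went from 0.0358, 0.148 and 0.123 CPM without LPS to 9.30, 6.79 and 9.17 CPM with it. Gene model 4, which has the same exon length of 610 bases, went from 0.215, 0.111 and 0.123 CPM to 6.25, 5.31 and 5.97 CPM. Gene model 5 was the only one above 1 CPM without LPS, with 73.7, 78.9 and 77.9 CPM, and it stood at 115.0, 110.8 and 114.8 CPM with LPS. The sum over the 5 went from 78.0 ± 2.70 to 628.3 ± 48.1 CPM (SD, n = 3).

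On chromosome 12 (105385117 to 105507575) all 5 gene models tested rose. Gene model 1 stood at 3.83, 4.10 and 3.76 CPM without LPS and at 6.32, 6.12 and 6.81 CPM with it, a log2 fold change of 0.72 that was not called in every fit without 1 library. The other 4 were near 0 in the controls and rose by log2 fold changes of 6.63, 5.36, 5.76 and 5.78. Their 3 shLuc libraries held 3, 16, 10 and 4 counts, so these fitted folds rest on few control counts. Gene models 2 and 3 from the left start at the same base and overlap, so part of their reads cannot be assigned to one of them. The highest of the 4 with LPS was gene model 3, at 8.32, 8.28 and 8.63 CPM, against 0.430, 0.0738 and 0.0817 CPM without LPS.

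Of the 1188 gene models tested on chromosome 11, the most of any chromosome, 3.37% rose against 2.52% over all. This chromosome held 4 of the 11 neighbourhoods of gene models that rose. In the largest (83339281 to 83566148) 6 of 7 gene models tested rose, with log2 fold changes of 1.63, 0.66, 1.24, 5.89, 4.64 and 2.05. Gene model 2 of these stood at 35.8, 42.8 and 31.5 CPM without LPS and at 55.4, 61.2 and 57.6 CPM with it. Gene model 4 had 0.0717, 0.111 and 0 CPM without LPS and 4.47, 3.58 and 3.89 CPM with it. Gene model 6 varied among the controls, at 6.56, 1.81 and 2.66 CPM with replicate 1 the highest, and stood at 14.5, 15.5 and 15.9 CPM with LPS. The calls of gene models 2, 4 and 5 held in all 6 fits without 1 library, and those of gene models 1, 3 and 6 did not.

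In another neighbourhood of the same chromosome (81849079 to 81930301) all 4 gene models tested rose. Gene model 1 went from 24.7, 33.2 and 23.7 CPM to 138.5, 146.4 and 135.5 CPM, or 2.36 ± 0.13 on the log2 scale (SE, edgeR adjusted p = 2.88e-06). Gene model 2 went from 22.1, 22.3 and 17.3 CPM to 72.3, 76.4 and 78.0 CPM. Gene model 3 rose by a log2 fold change of 0.96, from 2.42 ± 0.654 to 4.67 ± 0.541 CPM (SD, n = 3), a call that ended in at least 1 fit without 1 library. Gene model 4, farther to the right, rose by 2.57 on the log2 scale, from 1.19 ± 0.497 to 7.13 ± 1.12 CPM. The 2 remaining neighbourhoods of chromosome 11 (116459479 to 116636821, and 120575267 to 120588595) held 3 gene models each, with log2 fold changes from 0.42 to 1.35 and from 0.43 to 0.70. In the former 2 of the 3 calls held in every fit without 1 library, and in the latter 0 of 3.

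Chromosome 17 held 2 neighbourhoods. In the first (34865326 to 34999459) 4 of 8 gene models tested rose. The rightmost went from 7.67, 7.31 and 5.39 CPM to 62.6, 79.2 and 77.9 CPM, or 3.43 ± 0.15 on the log2 scale (SE, edgeR adjusted p = 6.30e-07). The leftmost went from 21.8, 31.9 and 29.4 CPM to 111.8, 133.2 and 118.5 CPM, with a log2 fold change of 2.13. It shares its start with the next gene model, which rose by 1.74 and whose span also holds the remaining one. Part of their counts may therefore not be assignable to one of them. The call of the remaining one, with a log2 fold change of 1.59, was lost in at least 1 fit without 1 library, and the other 3 held in all 6. The second neighbourhood (35378691 to 35579496) had smaller changes, with log2 fold changes from 0.64 to 1.06 for 3 of 8 gene models tested, which overlap, so part of their counts cannot be assigned to one of them. Of these 3 calls, 1 held in every fit without 1 library.

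**Figure D4:**
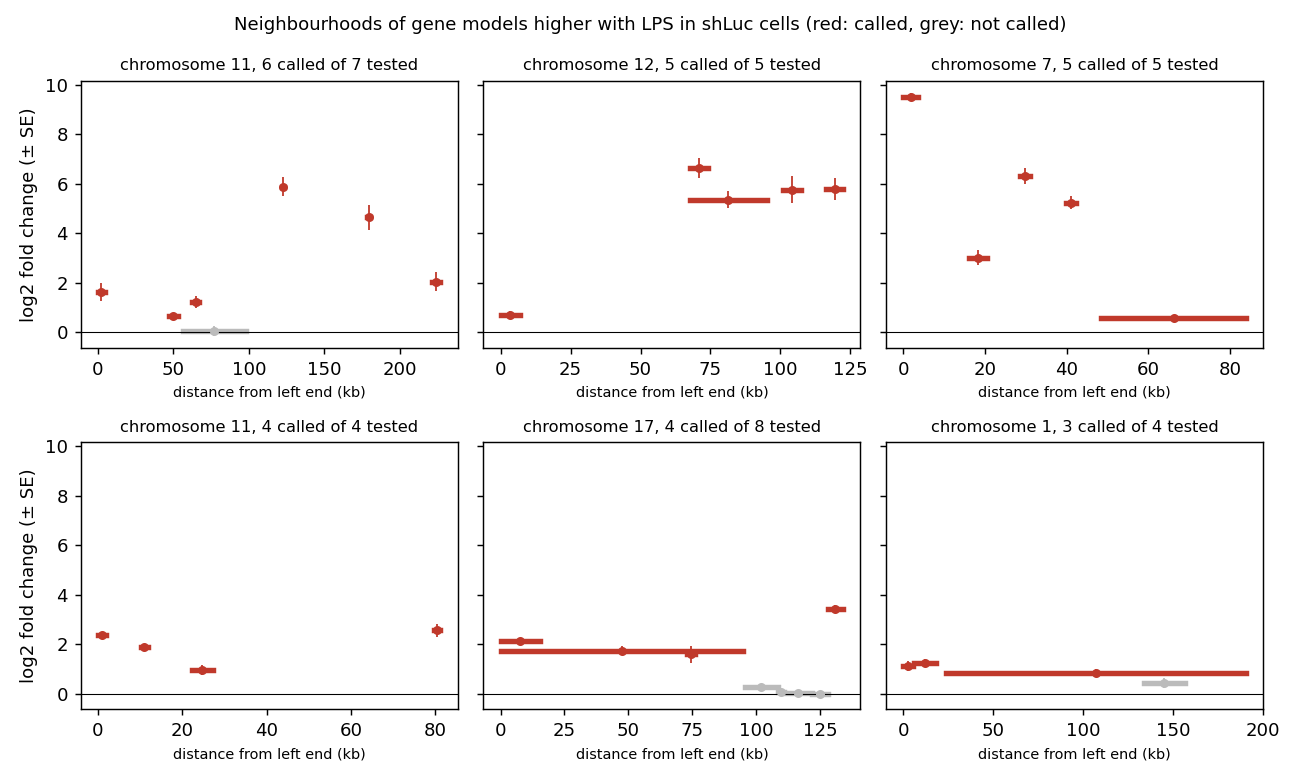
Each panel is 1 of the 6 neighbourhoods with the most called gene models; bars show the extent of every tested gene model as distance in kb from the left end, and points with error bars its log2 fold change ± SE on a shared axis. Called gene models (red) reach 9.51 in the chromosome 7 panel, and the uncalled ones (grey) lie near 0.

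The other neighbourhoods of gene models that rose had 3 members each. On chromosome 1 (175653815 to 175844310) 3 of 4 gene models tested rose, by log2 fold changes of 1.11, 1.26 and 0.84. Their sum stood at 43.2, 51.4 and 42.7 CPM without LPS and at 93.9, 81.7 and 94.6 CPM with it, and 1 of the 3 calls held in every fit without 1 library. On chromosome 10 (127196819 to 127252895) the 3 log2 fold changes were 0.72, 0.92 and 1.17. The last of these calls held in every fit without 1 library, and those of the leftmost 2, which share their start, did not. On chromosome 7 (126904437 to 127039259) the log2 fold changes were 0.74, 1.02 and 0.47, and 2 of the 3 calls held in this way. The neighbourhood that fell lay on chromosome 19 (10076159 to 10175993), where 3 of 4 gene models tested were lower by log2 fold changes of -0.83, -0.62 and -0.71. Its sum stood at 273.0, 244.2 and 242.5 CPM without LPS and at 135.7, 167.8 and 165.1 CPM with it, so that all treated libraries lay below all controls, and 2 of the 3 calls held in every fit without 1 library.

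The response was set against that of cells carrying the Irf3 hairpin (shIrf3), 3 libraries with and 3 without LPS that are not shared with it. Fitted alone, the shIrf3 libraries had far more calls, 9.16% higher and 10.9% lower of 14436 gene models or 20% in all, and their group coefficients of variation were 0.0451 and 0.0560. Of the 359 gene models that rose in shLuc cells and were tested there, 326 rose and 0 fell, and of 303 that fell, 247 fell and 0 rose. Among all those called in shLuc cells, the median log2 fold change was 0.78 in shLuc and 0.71 in shIrf3 cells for those that rose, and -0.66 and -0.52 for those that fell, in a fit of all 12 libraries. Since these gene models were chosen by their change in shLuc cells, larger values there carry no weight.

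The difference between the 2 responses was called for 1 of 15043 gene models (0.00665%) by edgeR's interaction test. The same test gave an unadjusted p under 0.05 for 880 of them (5.85%), a share close to that threshold itself. DESeq2 called 13 and limma-voom 0. The 1 gene model lay on chromosome 2 (32240157 to 32243259, 6 exons). It stood at 0.325, 0.628 and 0.367 CPM in shLuc cells and at 175.4, 154.5 and 158.8 CPM with LPS, and at 1.69, 1.29 and 1.25 CPM in shIrf3 cells and 153.9, 153.9 and 134.2 CPM with LPS. The log2 fold changes were 8.51 and 6.71, a difference of 1.80 ± 0.26 (SE, edgeR adjusted p = 0.0440). Without LPS every shIrf3 library lay above every shLuc library, and with LPS the lowest shLuc library (154.5 CPM) lay just above the highest shIrf3 library (153.9 CPM). The call ended in 10 of the 12 fits without 1 library, where it held only without shLuc replicate 1 (adjusted p = 0.0447) and without shLuc replicate 2 (adjusted p = 0.0130), and it ended with the replicate block (adjusted p = 0.0542).

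For the 4 named gene models no difference between hairpins passed the interaction test. The log2 fold change of uc007kkc.1 was 11.08 in shLuc and 8.91 in shIrf3 cells (edgeR adjusted p of the difference = 0.856), where it stood at 33.9 ± 0.245 CPM with LPS (SD, n = 3). The response of uc009gyx.1 was larger by 0.68 ± 0.25 in shLuc cells (edgeR adjusted p = 0.758). For uc007qjr.1 the difference was -0.19 ± 0.21 (adjusted p = 0.961), with 188.1 ± 7.91 CPM in shIrf3 cells and 61.6 ± 6.50 CPM with LPS (SD, n = 3, on the scale of the 12 libraries). The widest gap among those that fell was for uc009elo.1, whose log2 fold change was -1.73 in shLuc and -0.78 in shIrf3 cells. This difference of -0.95 ± 0.22 had an unadjusted edgeR p of 0.00102 and an adjusted p of 0.514. In shIrf3 cells uc009elo.1 stood at 130.7, 133.3 and 135.8 CPM without LPS and at 73.0, 61.9 and 98.0 CPM with it, and its change there was not called (adjusted p = 0.0569).

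In the neighbourhoods, 0 of the 45 gene models differed between hairpins by the adjusted test. An unadjusted interaction p under 0.05 was found for 11 of them (24.4%), in 7 of the 12 neighbourhoods, beside 5.85% of all gene models tested. As these gene models were chosen by their change in shLuc cells, whose libraries enter this test, nothing is read from that share. The chromosome 11 neighbourhood from 81849079 had median log2 fold changes of 2.12 in shLuc and 2.18 in shIrf3 cells. Gene model 3 there rose by 0.96 on the log2 scale in shLuc and by 1.86 in shIrf3 cells (edgeR adjusted p of the difference = 0.696). In the first chromosome 17 neighbourhood the rightmost gene model rose by 3.43 and 2.92 (edgeR adjusted p of the difference = 0.758). A p that misses the threshold does not show that the hairpins respond alike, and the spread among shLuc libraries enters every one of these tests.

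**Figure D5:**
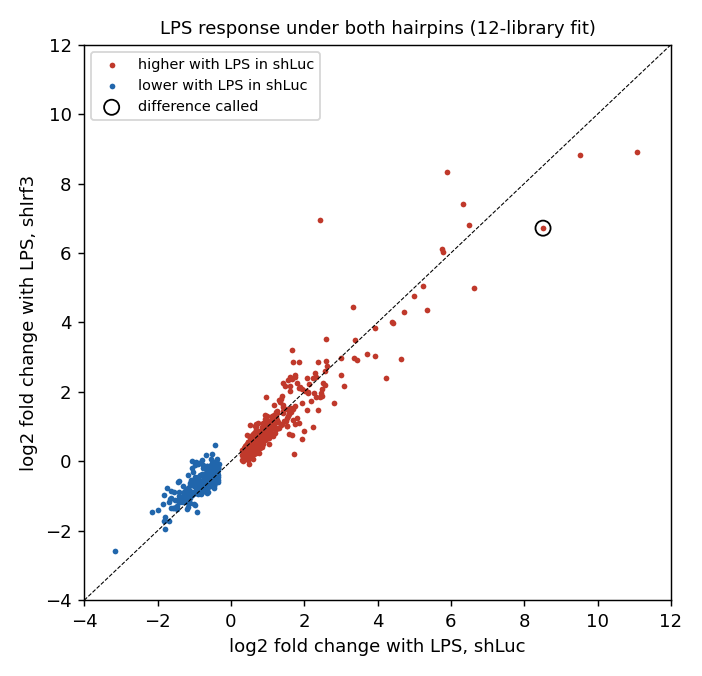
Each point is a gene model called in shLuc cells, with its log2 fold change with LPS in shLuc cells on the x axis and in shIrf3 cells on the y axis, both from the 12-library fit; the dashed line marks equal values. Most points lie near the line, and the circled one, at 8.51 and 6.71, is the 1 whose difference was called.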

How the data were processed

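The authors deposited raw read counts per gene model for all 18 libraries; per the file headers each row also gives exon positions, strand and exon length. Per the labels' protocols, 70 ng of total RNA was depleted of ribosomal RNA and made into libraries with a kit that does not mark strand, so overlapping gene models cannot be told apart by strand. The submitters' processing notes name build mm9, the aligner TopHat2 2.0.14, the counter featureCounts 1.4.6, and SAMtools 0.1.19, Picard 2.2.4, bcl2fastq 2.17.1.14 and edgeR, without settings.

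Counts were tested with edgeR 4.0.16 (glmQLFit with robust estimation, glmQLFTest; R 4.3.3) on the 6 shLuc libraries after filterByExpr, which kept 14643 of 27473 gene models. Library sizes and TMM factors came from gene models outside chromosome M, and p-values were Benjamini-Hochberg adjusted over all those tested. CPM values use these factors. Standard errors were obtained by dividing each log2 fold change by the root of its F statistic. The common biological coefficient of variation was 0.116, and the difference between hairpins was tested in a fit of 12 libraries. Named gene models had to be called in the full fit and without each library, not overlap between groups and reach a mean of 5 CPM; they were ordered by their smallest change over these fits, and 2 per direction were taken. Members, lists and tests were chosen with earlier results of these data known. The edgeR step was tested on simulated data in which both groups had the same spread. That test does not cover the unequal spread of these groups (coefficients of variation 0.157 in shLuc and 0.0543 with LPS). Replicate pairs differed beyond sampling noise (chi-square over degrees of freedom between 3.38 and 349.9), so none was taken as deposited repeatedly. Alternatives used DESeq2 1.42.0 and limma 3.58.1 among others. Intervals cover counting error only.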

Additional observations from a re-analysis of the deposited data

Results flagged for a closer look

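The gene model on chromosome 2 (32240157 to 32243259) stands out because the test of the difference itself was passed: its log2 response to LPS was 1.80 larger in shLuc than in shIrf3 cells (edgeR adjusted p = 0.0440), from 8.51 and 6.71. Over the alternatives run for it the difference lay between 1.59 and 2.15, with adjusted p-values from 8.06e-05 in DESeq2 to 0.422 in limma-voom. The cause was not tested.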

How the results depend on the processing

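The log2 fold changes of the 4 named gene models kept their direction and their call in all 18 alternatives run for each, with adjusted p-values up to 0.00374. The fits without 1 library are among these alternatives. Passing them was a condition of the choice of these gene models, so those fits add no support. The numbers of gene models called for LPS in shLuc cells moved by more than 1.5 times with limma's quality weights (804 higher, 733 lower, and 125 lower by at least 2-fold), with 12 libraries in 1 fit (669 and 660) and without single libraries, where they ran from 185 to 612 higher and from 106 to 547 lower, and those lower by at least 2-fold from 38 to 107. Those higher by at least 2-fold stayed within 1.5 times of 143, from 109 to 161. With shLuc replicates 1 and 2 both left out, an alternative chosen after seeing the data, there were 744 and 523, where the lone shLuc library is assumed to vary like the other group. Neighbourhoods higher with LPS numbered 7 with starts at most 50 kb apart and 18 at 200 kb, and those lower 0 at 50 kb. With calls from limma's quality weights there were 33 and 5, with 12 libraries in 1 fit 25 and 6, and without 1 library from 4 to 23 and from 0 to 2, all chosen after seeing the data. The difference between hairpins was called for 13 gene models in DESeq2, for 0 in limma-voom, for 0 with at least 1 CPM in 3 libraries, for 0 with the replicate block and for 0 to 15 without 1 library. Replicate numbers are shared between the groups. Libraries with the same number deviated together only weakly (correlations 0.0741, 0.0978 and 0.0124). For shLuc replicates 1 and 2, but not 3, the LPS library of the same number was nonetheless the one with the highest correlation. Replicate 1 was also the highest library of both groups for the chromosome 9 gene model from 123276058. It stood there at 46078 CPM without LPS and 3759 CPM with it, against at most 1190 and 607 CPM in the others. Whether libraries of the same number share a culture or batch was not tested. With the replicate block 389 gene models were higher and 334 lower. Scaling with chromosome M included changed little, with 368 higher and 303 lower, of which 659 were also called in the main fit. The causes of these movements were not tested. Depth limits what can be seen of gene models with few counts without LPS.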
